A study of Arabidopsis thaliana with 6 samples.

Results

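Transcription factor genes that plants switch on within minutes of stress are described here across MIF_3, MIF_1 and wild-type (WT) seedlings of Arabidopsis thaliana. They are the C2H2 zinc finger genes ZAT10, ZAT12, ZAT6 and AZF2, and the AP2/ERF-domain genes ERF4, ERF11, ERF5, ERF6, ERF104 and ORA47. The 10 genes, of 32834 loci in the count table, were picked by locus ID with results of these libraries in view, so their own levels and fold changes are given as a description and without p-values. All 10 passed the low-count filter, which kept 20438 loci.

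The groups were MIF_3 and MIF_1, 2 transgenic sets of Col-0 with the genotype pTA7002-Dexp:Myc-MIF, and untransformed Col-0 (WT), with 2 libraries each. pTA7002 is a vector from which dexamethasone switches on the inserted gene, here a Myc-tagged MIF. Whole seedlings of every group, WT included, were 7 days old and had grown on medium with sucrose and 10 µM dexamethasone, so the drug itself was shared by all groups. The labels do not say what the set numbers stand for or whether replicates were grown apart, and p-values therefore measure the spread between these libraries. No group with the empty vector or without dexamethasone was analysed here. Libraries held 24.2e6 and 24.7e6 counts in MIF_3, 22.4e6 and 22.8e6 in MIF_1, and 21.4e6 and 18.3e6 in WT. WT replicate 2 stood apart, with 0.132% of its counts from plastid-encoded loci, against 0.0203% to 0.0273% in the other 5 libraries. The 4 shoot markers (LHCB1.3, LHCB2.1, RCA and RBCS1A) summed to 36779 and 44814 counts per 1e6 (CPM, scaled by TMM factors) in MIF_3, 32520 and 35132 in MIF_1, and 52391 and 53765 in WT, and the 6 root markers to 119 and 99.8 CPM in MIF_3, 100.3 and 94.9 in MIF_1, and 105 and 96.1 in WT, so both organs were represented in every library. Single root markers did not all follow the sum. At an edgeR adjusted p below 0.05, 1 of 6 was called higher in MIF_1 against WT (EXPA7) and 0 lower. In MIF_3 against WT, 2 of 6 were called higher (EXPA7 and PRP3) and 0 lower. Over all genes, 7.82% and 5.84% were called higher in these contrasts. The part of the lower shoot marker sums of both sets and of these root marker calls in the results was not tested. In whole seedlings, fewer cells that express a gene and less RNA per cell cannot be told apart.

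The zinc finger proteins of the ZAT and AZF group carry a short repression motif, the EAR motif, and damp transcription during cold, drought, salt, high light and oxidative stress. ERF4 and ERF11 are AP2/ERF repressors with the same kind of motif, whereas ERF5, ERF6 and ERF104 are relatives that act mainly as activators and are phosphorylated by stress-activated MAP kinases. ORA47 belongs to the DREB branch of the family and activates genes of jasmonate synthesis. Transcripts of such genes are short-lived and appear quickly and briefly after touch, wounding, cold or microbial signals.

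The upstream regions of 3 of the 10 genes are shown because they hold the GCC box (GCCGCC), the element that ERF proteins bind. They are the bases just before the annotated gene start in TAIR10.1 (RefSeq), all on the minus strand and given 5′ to 3′, with the GCC box in capitals in whichever orientation it lies. They come from chr1:9649324-9649473 for ZAT10, chr5:1217363-1217512 for ZAT6 and chr1:9956981-9957130 for ERF11.
ZAT10: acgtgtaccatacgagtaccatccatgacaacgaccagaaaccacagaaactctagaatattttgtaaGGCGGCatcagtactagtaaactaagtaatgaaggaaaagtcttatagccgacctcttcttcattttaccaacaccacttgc
ZAT6: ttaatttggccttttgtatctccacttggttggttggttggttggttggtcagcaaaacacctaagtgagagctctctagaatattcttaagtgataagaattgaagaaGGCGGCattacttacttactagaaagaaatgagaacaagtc
ERF11: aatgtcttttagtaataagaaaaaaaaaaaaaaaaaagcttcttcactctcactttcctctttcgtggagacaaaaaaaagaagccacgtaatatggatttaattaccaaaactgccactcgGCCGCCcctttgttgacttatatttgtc

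The GCC box began 82 bases before the start of ZAT10, 41 before ZAT6 and 28 before ERF11. ZAT10 and ZAT6 had it in the reverse orientation, and upstream of it both held the run ctctagaatatt, the longest of 12 bases that their 250-base regions share. Over the window from 250 bases before to 50 after the start, searched on both strands, 3 of 10 genes held the GCC box, against 2.57% of 27443 nuclear protein-coding genes. The G box (CACGTG) was in 4 of 10 (ZAT10, ZAT6, AZF2 and ERF4), against 7.68% of all, and in 3 of these it lay after the start. The DRE core (CCGAC) was in 4 of 10 (ZAT10, ZAT6, AZF2 and ERF5), against 15%, and the W box (TTGACC or TTGACT) in 6 of 10, against 32.4%. CGCGTT, the core of the rapid stress response element, was in 0 of 10 windows, against 3.40% of all. In the 250 bases before the start alone, the W box was in 4 of 10, against 28.4%, and the G box in 1 of 10, against 6.49%. The GCC box and the DRE core stayed at 3 and 4 of 10 there, against 1.87% and 12%. These are matches of letters in short windows and not bound sites. Of the 10 genes, 9 consist of a single exon, against 18.9% of 27444 nuclear protein-coding loci, and AZF2 has up to 2 exons. Most of the other ZAT, ERF and DREB genes listed below also have a single exon, so the trait is shared with these relatives.

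Levels of the 10 genes were lowest in MIF_3. In MIF_3 all 10 had both libraries below the MIF_1 and WT libraries, a pattern that 9.3% of the 20438 genes tested showed. Summed over the 10 genes, MIF_3 held 54.6 and 66.5 CPM, against 209 and 206 in MIF_1 and 222 and 316 in WT. In the fit over all genes (edgeR quasi-likelihood test, Benjamini-Hochberg adjusted p below 0.05), MIF_3 was called lower than WT for 10 of 10, where 7.47% of all genes were called lower, 5.84% higher and 13.3% in either direction. MIF_3 was called lower than MIF_1 for 8 of 10, where 1.29% of all genes were called lower, 0.475% higher and 1.76% in either direction. MIF_1 was called lower than WT for 3 of 10, where 9.85% were called lower, 7.82% higher and 17.7% in either direction. Because the genes were picked on these contrasts, nothing is read from those counts. The MIF_3 and MIF_1 comparisons with WT also share the WT libraries. The fold change of MIF_3 against MIF_1 compares no WT library, but its calls rest on a spread and scaling estimated from all libraries, WT included.

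**Figure D1:**
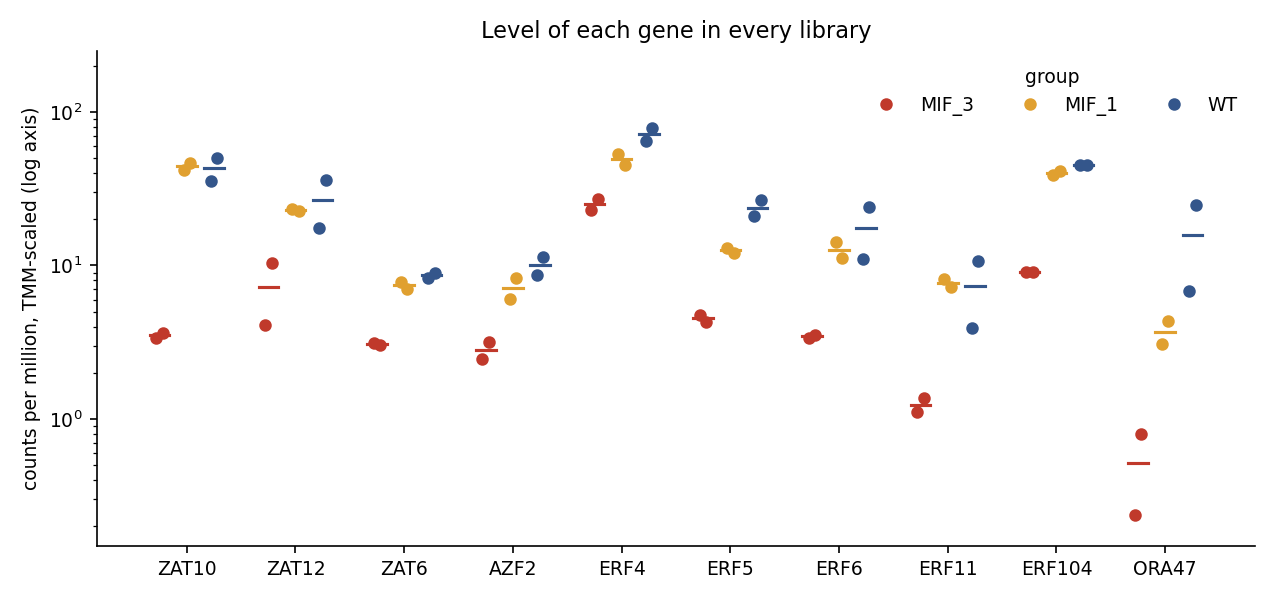
Level of the 10 genes in each library, in TMM-scaled CPM on a log axis; points are libraries (2 per group) and bars are group means. In each gene both MIF_3 points lie below the MIF_1 and WT points, and the MIF_1 points of ZAT10, ZAT12, ERF6 and ERF11 lie within or overlap the WT range.

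ZAT10 (AT1G27730, chr1:9648021-9649323, minus strand), also called STZ and the best known of these repressors in salt and light stress, had the widest gap between the transgenic sets. Its level was 3.40 and 3.63 CPM in MIF_3, against 41.8 and 46.5 CPM in MIF_1 and 35.6 and 50.1 CPM in WT. The 2 MIF_3 libraries stood close together and far below the rest, and both MIF_1 libraries fell inside the WT range. In MIF_3 against WT the log2 fold change was -3.61 ± 0.19 (standard error; 2 libraries against 2), which is 12.2-fold lower, and -3.65 ± 0.19 in MIF_3 against MIF_1. Between MIF_1 and WT it was 0.05 ± 0.16, not called, and it turned to -0.03 without MIF_1 replicate 2 and to -0.17 without WT replicate 1. Among the 20438 genes ordered from the lowest fold change of MIF_3 against WT, ZAT10 was number 25.

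ZAT12 (AT5G59820, chr5:24102814-24103794, plus strand), a repressor that responds to reactive oxygen, varied most between replicates among the zinc finger genes. It had 4.11 and 10.4 CPM in MIF_3, 23.1 and 22.8 CPM in MIF_1, and 17.6 and 36.05 CPM in WT. MIF_3 lay below the other groups in both libraries, but its own 2 libraries were far apart, as were those of WT. The log2 fold change of MIF_3 against WT was -1.89 ± 0.40, called lower, and -1.29, no longer called, without WT replicate 2. Against MIF_1 it was -1.67 ± 0.39 and not called, and it was called without MIF_3 replicate 2 (-2.48), without WT replicate 1 or without WT replicate 2 (-1.67 each). Between MIF_1 and WT it was -0.22 ± 0.37, not called, and 0.38 without WT replicate 2.

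ZAT6 (AT5G04340, chr5:1216058-1217362, minus strand), which takes part in phosphate, salt and metal responses, was the least scattered of the zinc finger genes. Its level was 3.12 and 3.02 CPM in MIF_3, 7.77 and 7.06 CPM in MIF_1, and 8.33 and 8.92 CPM in WT. The 3 groups did not overlap. ZAT6 had log2 fold changes of -1.49 ± 0.20 in MIF_3 against WT and -1.27 ± 0.20 in MIF_3 against MIF_1, both called lower, and -0.22 ± 0.19, not called, in MIF_1 against WT. AZF2 (AT3G19580, chr3:6802903-6804296, minus strand), a repressor of abscisic acid and salt responses, had 2.45 and 3.18 CPM in MIF_3, 6.09 and 8.27 CPM in MIF_1, and 8.73 and 11.3 CPM in WT. It followed the same order without overlap, with log2 fold changes of -1.82 ± 0.26 in MIF_3 against WT and -1.35 ± 0.26 in MIF_3 against MIF_1, both called, and of -0.47 ± 0.24, not called, in MIF_1 against WT. The calls of ZAT6 and AZF2 in MIF_3 against MIF_1 ended without MIF_1 replicate 1 or MIF_1 replicate 2, and that of AZF2 also without MIF_3 replicate 1.

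Among the AP2/ERF repressors, ERF4 (AT3G15210, chr3:5121303-5122562, plus strand), known for damping ethylene and abscisic acid responses, was lower in both transgenic sets. It had 23.0 and 27.3 CPM in MIF_3, 53.0 and 45.3 CPM in MIF_1, and 64.2 and 78.4 CPM in WT, with no overlap between groups. Its log2 fold changes were -1.50 ± 0.14 in MIF_3 against WT, -0.97 ± 0.14 in MIF_3 against MIF_1 and -0.54 ± 0.14 in MIF_1 against WT, all called lower. The call in MIF_1 against WT ended without WT replicate 2 (-0.38) or without either MIF_1 library (-0.65 and -0.43) or when libraries were scaled by total counts alone (-0.33), and that in MIF_3 against MIF_1 without either MIF_1 library. ERF4 was the gene of the 10 with the smallest difference between MIF_3 and MIF_1.

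ERF11 (AT1G28370, chr1:9955774-9956980, minus strand), a repressor tied to ethylene synthesis and to gibberellin and abscisic acid responses, had 1.11 and 1.37 CPM in MIF_3. These rest on 28 and 34 counts (exact 95% Poisson intervals 18.6 to 40.5 and 23.5 to 47.5, counting error only). It had 8.11 and 7.27 CPM in MIF_1 and 3.91 and 10.7 CPM in WT, so that MIF_1 lay within the wide WT range. Its log2 fold change was -2.55 ± 0.44 in MIF_3 against WT and -2.63 ± 0.44 in MIF_3 against MIF_1, both called lower, and 0.08 ± 0.38, not called, in MIF_1 against WT. Without WT replicate 1 that last value was -0.47, without WT replicate 2 it was 0.98, and without MIF_1 replicate 1 it was 0.00. The call in MIF_3 against MIF_1 ended without either MIF_1 library.

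The group IX activators shared a drop of similar size in MIF_3 against WT. ERF104 (AT5G61600, chr5:24766344-24767732, minus strand), which the MAP kinase MPK6 phosphorylates in flagellin signalling, was the most even of the 10 between replicates. It had 9.04 and 9.03 CPM in MIF_3, 39.1 and 40.9 CPM in MIF_1, and 44.8 and 45.0 CPM in WT. Its log2 fold change was -2.31 ± 0.11 in MIF_3 against WT and -2.15 ± 0.11 in MIF_3 against MIF_1, both called lower, with -0.17 ± 0.10, not called, in MIF_1 against WT. The last value was 0.04 when libraries were scaled by total counts alone.

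ERF6 (AT4G17490, chr4:9752824-9754161, minus strand), a substrate of MPK3 and MPK6 that limits leaf growth under drought, had 3.40 and 3.55 CPM in MIF_3, 14.2 and 11.2 CPM in MIF_1, and 11.04 and 23.99 CPM in WT. MIF_3 was lowest, and MIF_1 overlapped WT, whose 2 libraries were wide apart. ERF6 had log2 fold changes of -2.33 ± 0.33 in MIF_3 against WT and -1.87 ± 0.33 in MIF_3 against MIF_1, both called lower, and the call against MIF_1 ended without either MIF_1 library. Between MIF_1 and WT it was -0.46 ± 0.30 and not called. Without WT replicate 1 it was -0.91 and called, and without WT replicate 2 it was 0.20.

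ERF5 (AT5G47230, chr5:19179881-19181182, plus strand), the closest relative of ERF6 in growth and chitin responses, was lower in MIF_1 as well. It had 4.74 and 4.31 CPM in MIF_3, 13.0 and 12.1 CPM in MIF_1, and 21.1 and 26.5 CPM in WT, with clear gaps between the 3 groups. The log2 fold changes were -2.39 ± 0.17 in MIF_3 against WT, -1.47 ± 0.17 in MIF_3 against MIF_1 and -0.92 ± 0.16 in MIF_1 against WT, all called lower. The call in MIF_1 ended without MIF_1 replicate 2 (-0.87), and that in MIF_3 against MIF_1 without MIF_1 replicate 1 (-1.42).

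ORA47 (AT1G74930, chr1:28143851-28145058, plus strand) had the lowest fold change of the 10 genes in MIF_3 against WT and the fewest counts of the 10 in MIF_3 and in MIF_1. Its CPM was 0.237 and 0.806 in MIF_3, 3.07 and 4.32 in MIF_1, and 6.82 and 24.9 in WT. The counts behind it were 6 and 20 in MIF_3 (exact 95% Poisson intervals 2.20 to 13.1 and 12.2 to 30.9), 73 and 104 in MIF_1, and 136 and 413 in WT. The groups did not overlap, but the libraries of MIF_3 and of WT differed in proportion by more than those of MIF_1. The log2 fold change was -4.91 ± 0.68 in MIF_3 against WT, number 9 from the lowest of the 20438 genes, and -3.70 without WT replicate 2. In MIF_1 against WT it was -2.09 ± 0.54, called lower, and the call ended without WT replicate 2 (-0.88) or without either MIF_1 library (-1.87 and -2.36), and DESeq2 did not make it (-2.10). MIF_3 against MIF_1 gave -2.82 ± 0.71, which was not called, but was called when either WT library was left out. The locus overlaps AT1G74929 on the opposite strand, which had 0 counts in all 6 libraries. The strand setting of the counting was not given, and the part of this overlap in the counts of ORA47 was not tested.

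**Figure D2:**
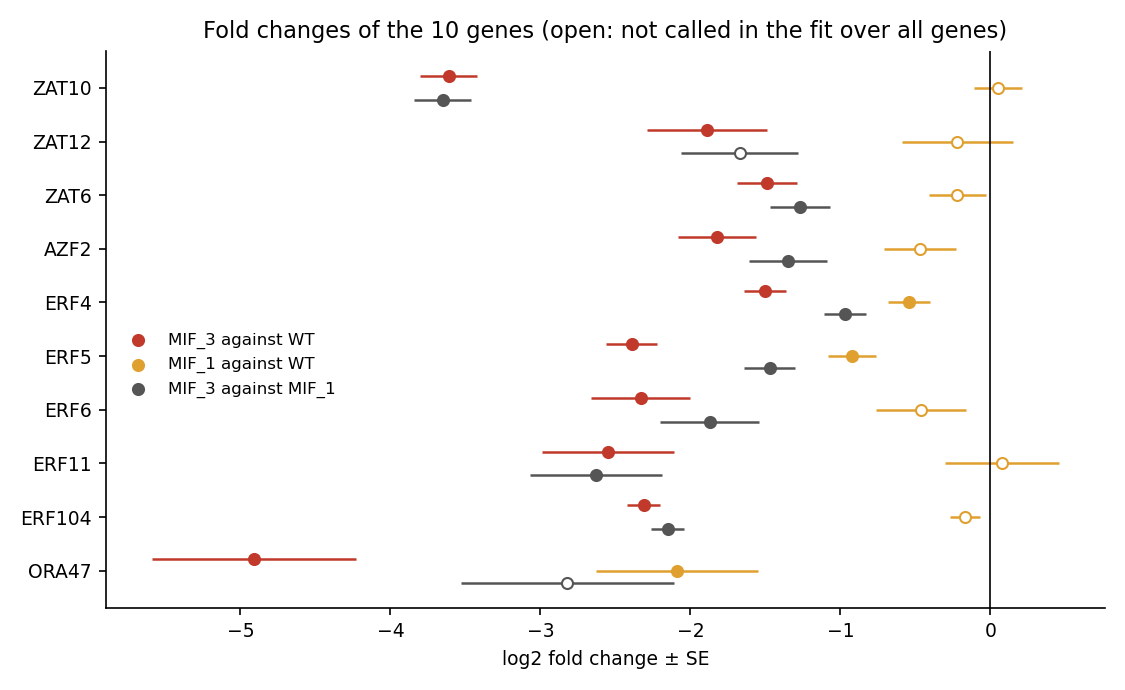
Fold changes of the 10 genes on the log2 scale, with bars of 1 standard error (2 libraries per group); filled points were called in the fit over all genes and open points were not. MIF_3 against WT and MIF_3 against MIF_1 are below 0 for all 10 genes, from -4.91 to -0.97, whereas MIF_1 against WT runs from -2.09 to 0.08.

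By their calls the 10 genes fell into 4 patterns. ZAT10, ZAT6, AZF2, ERF6, ERF11 and ERF104 were lower in MIF_3 against both other groups and not called in MIF_1 against WT, a combination that 85 of the 20438 genes (0.416%) had. ERF4 and ERF5 were called lower in all 3 contrasts, ORA47 in both sets against WT but not in MIF_3 against MIF_1, and ZAT12 in MIF_3 against WT alone. Absence of a call in MIF_1 does not show an equal level, since the SE of that contrast was as large as 0.38 among the uncalled genes. Within WT, replicate 2 was above replicate 1 in 10 of 10 genes, where 50.9% of all genes tested were, so the fold changes were also computed without it. Without WT replicate 2, all 10 log2 fold changes of MIF_3 against WT stayed below 0, from -3.70 to -1.29, and 9 were called. In MIF_1 against WT, 6 of 10 stayed below 0 and 1, that of ERF5, was called. Leaving out MIF_1 replicate 1 or MIF_1 replicate 2 left 10 negative values in MIF_3 against MIF_1 and 2 (ZAT10 and ERF104) or 3 calls (these and ERF5), while the calls over all genes went down to 20 and 53, against 360 with all libraries.

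Per kilobase of exon, the highest WT level was that of ERF4 (62.5 ± 8.84 CPM per kb; SD, n = 2). ZAT10 (32.9 ± 7.86), ERF104 (32.3 ± 0.0635) and ZAT12 (27.3 ± 13.3) came next, with overlapping ranges of mean ± SD. ERF5 (18.3 ± 2.96), ERF6 (13.1 ± 6.85) and ORA47 (13.1 ± 10.6) followed. AZF2 (7.17 ± 1.29), ZAT6 (6.61 ± 0.322) and ERF11 (6.07 ± 3.99) came last, again with overlapping ranges. In MIF_3 the order of levels differed. ERF4 stayed first at 22.04 ± 2.64 CPM per kb and ZAT12 (7.37 ± 4.504) and ERF104 (6.50 ± 0.00796) followed, while ZAT10 stood at 2.69 ± 0.125, near ERF6 (2.59 ± 0.0795) and ZAT6 (2.35 ± 0.0526).

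Over the 6 libraries, the genes outside the 10 whose centred log2 profile lay nearest to that of ZAT10 were CAF1a (Euclidean distance 0.80), AT5G17350 (0.90), AT1G35210 (1.04), AT4G27657 (1.07) and DIC2 (1.08), among 17463 genes with a mean log2 CPM of at least 1. CAF1a encodes a deadenylase that shortens poly(A) tails, and DIC2 a mitochondrial dicarboxylate carrier. ERF11 was the nearest of the 10, at 1.52, and ERF4 the farthest, at 2.80. AT5G17350 had 2.72 and 1.81 CPM in MIF_3, 19.9 and 16.4 in MIF_1, and 14.8 and 22.4 in WT. DIC2 had 10.7 and 7.17 CPM in MIF_3, 63.4 and 53.6 in MIF_1, and 56.6 and 103 in WT. The log2 fold changes of MIF_3 against MIF_1 were -3.00 ± 0.26 for AT5G17350 (adjusted p = 0.000819), -3.33 ± 0.41 for AT1G35210 (0.00506), -3.17 ± 0.30 for AT4G27657 (0.00145) and -2.71 ± 0.28 for DIC2 (0.00218). The calls of AT1G35210 ended without MIF_1 replicate 1 (0.0916) or MIF_1 replicate 2 (0.0645) and that of DIC2 without MIF_1 replicate 1 (0.0726). Unlike ZAT10, AT4G27657 was also called lower in MIF_1 against WT, a call that ended in some alternatives. Its log2 fold change there ran from -1.11 to -0.63 as single libraries were left out. As the genes nearest to ZAT10 were picked for their likeness over the same libraries, the values describe how close they are.

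Several of the ERF genes lie beside or near a relative on the chromosome, and the values of these pairs, looked up after the values were seen, are given side by side. AT5G61590 is the neighbour of ERF104, 832 bases away on the same strand, and had 50.8 and 50.002 CPM in MIF_3, 53.98 and 50.2 CPM in MIF_1, and 21.9 and 41.7 CPM in WT. It lay above WT in both sets, where ERF104 was lower in MIF_3. Its log2 fold change of 0.67 ± 0.23 in MIF_3 against WT (edgeR adjusted p = 0.0888) and of 0.72 ± 0.23 in MIF_1 against WT (0.0593) missed the threshold. Both passed it without WT replicate 2. Of the alternative settings, 8 called AT5G61590 in MIF_1 against WT, among them the fits without either MIF_3 library, and 6 did not. In MIF_3 against WT, 4 called it and 10 did not. As single libraries were left out, its values ran from 0.33 to 1.25 in MIF_1 and from 0.28 to 1.2 in MIF_3. ERF12, 2668 bases from ERF11, was near the limit of detection, with 1.46 and 1.13 CPM in MIF_3, 0.672 and 1.04 in MIF_1, and 1.91 and 0.784 in WT, and its log2 fold change in MIF_3 against WT was -0.07 ± 0.54 (adjusted p = 0.951). That value was 0.10 without MIF_3 replicate 2, 0.73 without WT replicate 1 and 0.08 when libraries were scaled by total counts alone.

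ERF1A, 5041 bases from ERF6, had 12.0 and 16.6 CPM in MIF_3, 18.6 and 20.1 in MIF_1, and 19.9 and 26.2 in WT. It fell by 0.68 ± 0.18 on the log2 scale in MIF_3 against WT (adjusted p = 0.0373), a call that ended without MIF_3 replicate 1 (0.196), without WT replicate 2 (0.209) or without either MIF_1 library (0.0783 and 0.0784). ERF2, 6924 bases from ERF5 on the other strand with AT5G47225 and AT5G47229 between them, had 3.40 and 8.02 CPM in MIF_3, 5.42 and 6.98 in MIF_1, and 7.93 and 10.5 in WT. Its log2 fold change in MIF_3 against WT was -0.69 ± 0.35 (adjusted p = 0.244), and without MIF_3 replicate 2 it was -1.43 (0.0107). The differences within the pairs were not tested.

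**Figure D3:**
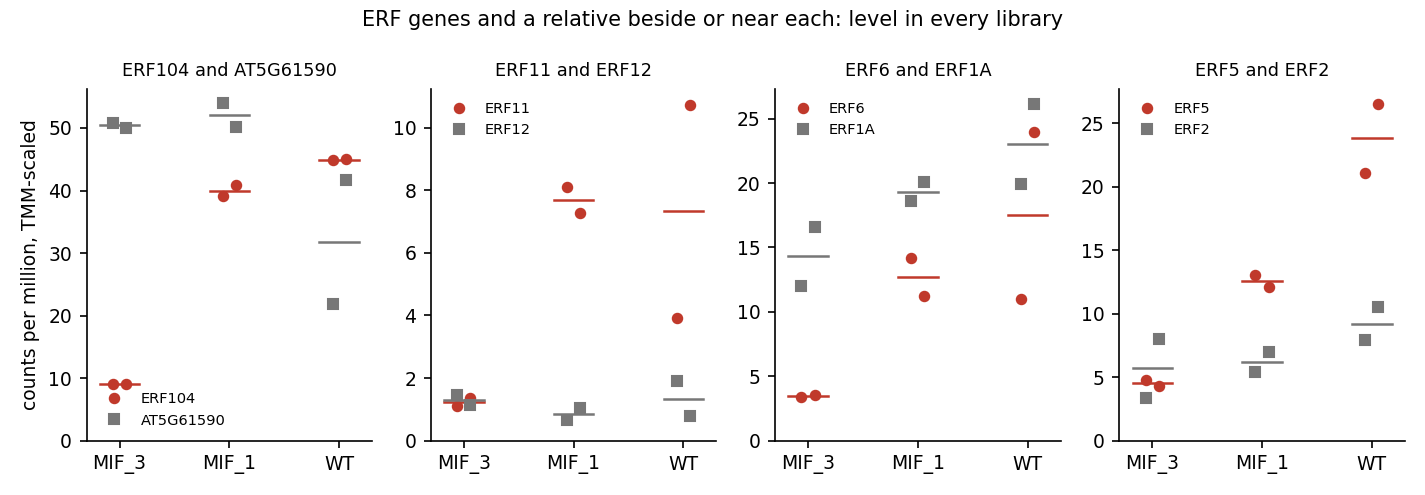
Level of ERF104, ERF11, ERF6 and ERF5 (circles) and of a relative beside or near each (squares) in every library, in TMM-scaled CPM; bars are means of 2 libraries, and levels of different genes are not comparable on this scale. ERF104 is at 9.04 and 9.03 in MIF_3, where AT5G61590 is at 50.8 and 50.002.

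The counts of the lists that follow stand beside 13.3% of all genes called in MIF_3 against WT, 17.7% in MIF_1 against WT and 1.76% in MIF_3 against MIF_1. Of 14 other ZAT and AZF genes listed, 11 were tested, and edgeR called 0 in MIF_3 against WT (2 at an unadjusted p below 0.05, and 1 by DESeq2) and 0 in MIF_3 against MIF_1 (1 at an unadjusted p below 0.05, and 0 by DESeq2). Their median log2 fold change was -0.28 and -0.49 in these contrasts, against 0.01 over all genes in each. ZAT7, a close relative of ZAT12, had 1.03 and 1.49 CPM in MIF_3, 3.70 and 2.08 in MIF_1, and 2.36 and 4.10 in WT, with log2 fold changes of -1.35 ± 0.44 in MIF_3 against WT (edgeR adjusted p = 0.0755) and -1.19 ± 0.44 in MIF_3 against MIF_1 (0.214). AZF1 had 3.08 and 1.77 CPM in MIF_3, 3.95 and 2.91 in MIF_1, and 3.66 and 3.98 in WT. AT2G28200 was the gene called in MIF_1 against WT, where it fell by 0.71 ± 0.16 (adjusted p = 0.0162). That call ended without any of the MIF_1 and WT libraries (adjusted p from 0.0526 to 0.109).

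Of 6 other group VIII ERF repressors, ERF8 fell in both sets, and 2 of the 6 were called in MIF_3 against WT without MIF_3 replicate 2. It had 5.33 and 6.41 CPM in MIF_3, 8.91 and 9.76 CPM in MIF_1, and 13.9 and 19.0 CPM in WT. The log2 fold change was -1.48 ± 0.20 in MIF_3 against WT (adjusted p = 0.00146) and -0.81 ± 0.19 in MIF_1 against WT (0.0191), and the call in MIF_1 ended without WT replicate 2 (0.126) or without either MIF_1 library (0.127 and 0.0941). ERF10 was lower in MIF_3 and not called, with 7 and 25 counts in MIF_3, 39 and 40 in MIF_1, and 30 and 28 in WT. Its log2 fold change was -1.31 ± 0.58 in MIF_3 against WT (adjusted p = 0.181) and -1.36 ± 0.57 in MIF_3 against MIF_1 (0.284). In each of these 2 contrasts, 4 of the 6 values were below 0. ERF3 and ERF7, related repressors, did not pass in any contrast, and ERF3 had 46.3 and 43.6 CPM in MIF_3, 47.2 and 47.9 in MIF_1, and 41.4 and 39.4 in WT.

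Other group IX ERF genes went both ways against WT, but all 8 tested were below 0 in MIF_3 against MIF_1. Over all genes, 9920 of 20438 were below 0 in that contrast. The median log2 fold change of the 8 was -0.73 there, against 0.01 over all genes. Of the 8, 1 was called lower and 0 higher, where 1.29% and 0.475% of all genes were. Of 8 tested of 13 listed, 1 rose and 2 fell in MIF_3 against WT, and 3 rose and 1 fell in MIF_1 against WT. Without MIF_1 replicate 2, 1 of the 8 was called in either contrast, and without MIF_1 replicate 1 it was 1 in MIF_3 against WT. ERF13, a wound- and pathogen-responsive activator, fell in both sets, with 0.553 and 0.524 CPM in MIF_3, 2.35 and 1.41 in MIF_1, and 5.52 and 10.5 in WT. Its log2 fold change was -3.87 ± 0.45 in MIF_3 against WT (adjusted p = 0.000577) and -2.08 ± 0.39 in MIF_1 against WT (0.006), and the call in MIF_1 ended without MIF_1 replicate 2 (0.0722) or WT replicate 2 (0.0575). ORA59, which joins jasmonate and ethylene signals, rose in MIF_1, with 6.60 and 6.65 CPM in MIF_1 and 1.25 and 2.05 CPM in WT (2.01 ± 0.37, adjusted p = 0.0055, and 0.0503 without MIF_1 replicate 2). ERF15 had 6.04 and 7.13 CPM in MIF_3, 12.7 and 13.3 in MIF_1, and 6.17 and 6.81 in WT, so that MIF_1 alone stood higher. It rose by 1.00 ± 0.18 in MIF_1 against WT (adjusted p = 0.00519, and 0.0514 without MIF_1 replicate 2) and fell by 0.98 ± 0.18 in MIF_3 against MIF_1 (0.0267), and the call in MIF_3 against MIF_1 ended without either MIF_1 library (0.221 and 0.189) or without MIF_3 replicate 1 (0.083). ERF105 had 0 counts in all 6 libraries, and its exon overlaps AT5G51180. The part of this overlap in its 0 counts was not tested.

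Among 10 tested DREB relatives of ORA47, 1 rose and 0 fell in MIF_3 against WT, 2 rose and 0 fell in MIF_1 against WT, and edgeR called 0 in MIF_3 against MIF_1 (3 at an unadjusted p below 0.05, and 1 by DESeq2). Leaving out 1 library moved these counts to between 1 and 4 in MIF_1 against WT (1 without either MIF_1 library, 4 without either MIF_3 library), to 2 in MIF_3 against WT without MIF_3 replicate 1, and to 1 in MIF_3 against MIF_1 without any of the MIF_3 or WT libraries. DEAR1, a DREB protein with an EAR motif, had 7.03 and 6.89 CPM in MIF_3, 7.98 and 9.10 in MIF_1, and 3.36 and 2.83 in WT. It rose by 1.16 ± 0.22 in MIF_3 (adjusted p = 0.00736) and by 1.46 ± 0.22 in MIF_1 (0.00209), opposite in sign to ORA47. DREB26 had 26.8 and 16.1 CPM in MIF_3, 70.0 and 51.4 in MIF_1, and 17.3 and 42.4 in WT, and its log2 fold change of -1.50 ± 0.36 in MIF_3 against MIF_1 missed the threshold (0.0768), which it passed without MIF_3 replicate 1 (0.0359), WT replicate 1 (0.0136) or WT replicate 2 (0.0139).

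Of the 8 jasmonate synthesis genes, which include targets of ORA47, edgeR called 0 in any of the 3 contrasts. At an unadjusted p below 0.05 there were 2 in MIF_3 against WT, 1 in MIF_1 against WT and 3 in MIF_3 against MIF_1, and DESeq2 called 1, 0 and 0. The count was 5 in MIF_3 against WT and 5 in MIF_3 against MIF_1 without MIF_3 replicate 1, 4 in MIF_3 against WT without MIF_3 replicate 2, 2 in MIF_1 against WT without either MIF_3 library, and 1 in MIF_3 or MIF_1 against WT without WT replicate 1. Summed over the 8 genes, levels were 489 and 1569 CPM in MIF_3, 467 and 515 in MIF_1, and 777 and 883 in WT. MIF_3 replicate 2 stood above every other library, which ORA47 did not. LOX2, the plastid lipoxygenase at the start of the pathway, had 259.8 and 1033 CPM in MIF_3, 209.55 and 221 in MIF_1, and 457 and 532 in WT. Its log2 fold change in MIF_3 against MIF_1 was 1.59 ± 0.46 (edgeR adjusted p = 0.129), and without MIF_3 replicate 1 it was 2.26 (4.07e-06).

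A list of 28 further genes of the rapid stress response, also drawn up with earlier results known, went the same way as the 10 genes in MIF_3. Of these, 18 fell and 1 rose in MIF_3 against WT, and 16 fell and 0 rose in MIF_3 against MIF_1, against 4 and 2 in MIF_1 against WT. Of all genes, 7.47% fell and 5.84% rose in MIF_3 against WT, 1.29% and 0.475% in MIF_3 against MIF_1, and 9.85% and 7.82% in MIF_1 against WT, so the list stood near the background in MIF_1 against WT. Their median log2 fold change was -1.26 in MIF_3 against WT and -1.23 in MIF_3 against MIF_1, where the median of all genes was 0.01. The number called in either direction in MIF_3 against WT was 16 without WT replicate 2, and in MIF_3 against MIF_1 it was 2 without MIF_1 replicate 1 and 3 without MIF_1 replicate 2. In MIF_1 against WT it was 3 without MIF_1 replicate 1 and 2 without MIF_1 replicate 2, against 6 with all libraries.

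CBF2, a DREB activator of cold response, fell most sharply among the list genes named by rule, with 0.355 and 0.201 CPM in MIF_3 (9 and 5 counts), 10.0 and 9.06 CPM in MIF_1, and 8.83 and 19.3 CPM in WT. The log2 fold change was -5.62 ± 0.47 in MIF_3 against WT (adjusted p = 9.79e-05) and -5.07 ± 0.48 in MIF_3 against MIF_1 (0.00138). In MIF_1 against WT it was -0.55 ± 0.32 (0.276), with -1.01 (0.0267) without WT replicate 1 and 0.11 without WT replicate 2. Its tandem relative CBF1 had 0 counts in both MIF_3 libraries, 31 and 32 in MIF_1, and 34 and 96 in WT, at least 59.5-fold lower than WT and at least 21.996-fold lower than MIF_1 against a floor of 3 counts over the group. CBF3, which lies between CBF1 and CBF2, had 3 and 6 counts in MIF_3, 8 and 3 in MIF_1, and 16 and 19 in WT. It was not called in MIF_3 against WT (-2.39 ± 0.77, adjusted p = 0.0727) or in MIF_3 against MIF_1 (-0.35 ± 0.88, 0.903). RRTF1, an ERF of redox signalling, had 1 and 2 counts in MIF_3, 44 and 34 in MIF_1, and 30 and 125 in WT. The ratio of its pooled, depth-scaled counts was 0.0141 in MIF_3 against WT (95% interval 0.00288 to 0.042, counting error only). In MIF_3 against MIF_1 that ratio was 0.0367 (0.00741 to 0.111). RRTF1 was called lower in MIF_3 against WT (adjusted p = 0.0033) and was not called in MIF_3 against MIF_1 (0.0572).

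CAF1a had 8.49 and 6.81 CPM in MIF_3, 63.4 and 63.7 CPM in MIF_1, and 44.1 and 74.5 CPM in WT. It fell by 2.95 ± 0.23 in MIF_3 against WT (adjusted p = 6.68e-05) and by 3.05 ± 0.23 in MIF_3 against MIF_1 (0.000338), and its value in MIF_1 against WT was 0.10 ± 0.21 (0.784), or -0.22 without WT replicate 1. WRKY18, a defence regulator, was the list gene called higher in MIF_3 against WT, and NHL10, FRK1, WRKY11 and WRKY6 had log2 fold changes from 0.18 to 3.13 there and were not called. WRKY18 had 40.9 and 26.1 CPM in MIF_3, 50.1 and 40.8 in MIF_1, and 5.57 and 13.7 in WT, and rose by 1.82 ± 0.34 in MIF_3 (0.0078) and by 2.26 ± 0.34 in MIF_1 (0.00234). CYP81F2, an enzyme of indole glucosinolate synthesis, had 6.59 and 5.44 CPM in MIF_3, 16.8 and 20.4 in MIF_1, and 6.17 and 8.02 in WT. It rose by 1.39 ± 0.20 in MIF_1 against WT (0.00172) and fell by 1.63 ± 0.20 in MIF_3 against MIF_1 (0.00454), and the call in MIF_3 against MIF_1 ended without MIF_1 replicate 1 (0.0726) or MIF_1 replicate 2 (0.0788).

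**Figure D4:**
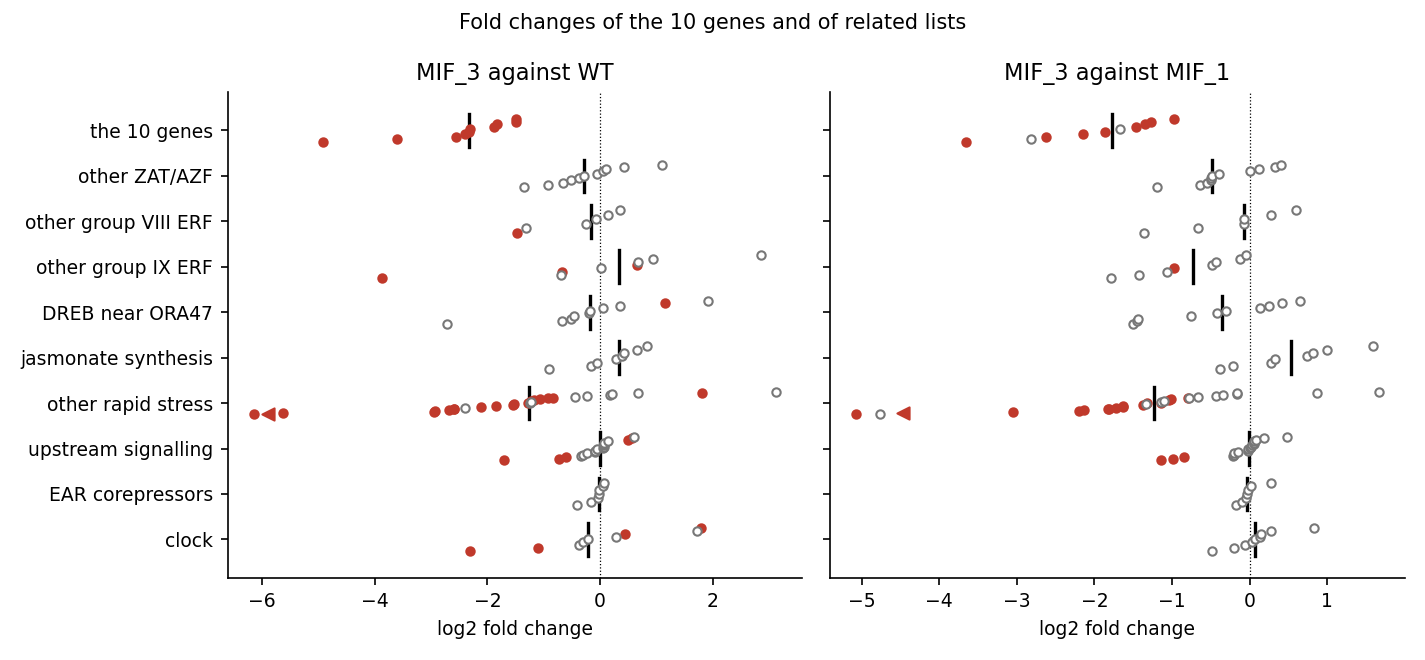
Log2 fold changes of the 10 genes and of 9 lists of related genes in MIF_3 against WT (left) and MIF_3 against MIF_1 (right); points are genes, filled where called in the fit over all genes and open where not, and black bars are medians. The triangle is CBF1 at its bound, and genes with 1 to 3 counts in a group are at the ratio of pooled counts. Medians are -2.32 and -1.77 for the 10 genes, -1.26 and -1.23 for the other rapid stress genes, and between -0.28 and 0.34 (left) and -0.73 and 0.53 (right) for the other lists.

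Of 18 genes for kinases, CAMTA factors and the oxidase that act upstream, 2 rose and 3 fell in MIF_3 against WT, 3 rose and 0 fell in MIF_1 against WT, and 0 rose and 3 fell in MIF_3 against MIF_1. The 3 calls in MIF_1 against WT are about the share over all genes, 17.7%, and the others stand beside 13.3% and 1.76%. Their median was 0.00 in MIF_3 against WT. MPK3, the stress-activated MAP kinase, had 46.5 and 48.1 CPM in MIF_3, 102 and 86.6 in MIF_1, and 66.4 and 90.8 in WT, and its log2 fold change was -0.73 ± 0.15 in MIF_3 against WT (adjusted p = 0.0119, and 0.0788 without WT replicate 2). In MIF_3 against MIF_1 it fell by 0.99 ± 0.15 (0.0118). MPK6 had 51.4 and 53.3 CPM in MIF_3, 52.2 and 53.5 in MIF_1, and 49.0 and 50.6 in WT. MKK9, a kinase above MPK3 and MPK6, fell by 1.70 ± 0.22 in MIF_3 against WT (0.00128) and by 1.14 ± 0.22 in MIF_3 against MIF_1 (0.0377). RBOHD, the oxidase of the stress-induced oxidative burst, had 98.3 and 88.8 CPM in MIF_3, 187 and 149.95 in MIF_1, and 96.9 and 102 in WT, so that MIF_1 stood above both other groups. It rose by 0.76 ± 0.12 in MIF_1 against WT (0.00301) and fell by 0.85 ± 0.12 in MIF_3 against MIF_1 (0.00953). In MIF_3 against MIF_1 the calls of MPK3 and MKK9 ended without either MIF_1 library, that of MKK9 also without MIF_3 replicate 1 (0.1), and that of RBOHD without MIF_1 replicate 1 (0.13). In MIF_3 against WT, 2 of the 18 were called without MIF_3 replicate 1 or WT replicate 1, and 1 without WT replicate 2. In MIF_1 against WT, 1 was called without any of the MIF_1 or WT libraries, and in MIF_3 against MIF_1, 0 without MIF_1 replicate 1 and 1 without MIF_1 replicate 2.

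The 7 corepressor genes that EAR motifs recruit, among them TPL and HDA19, were called in 0 of 7 cases in each contrast by edgeR, and in 1, 1 and 0 cases by DESeq2 in MIF_3 against WT, MIF_1 against WT and MIF_3 against MIF_1. At an unadjusted p below 0.05 there were 1, 2 and 1, and 1 was called in MIF_1 against WT without either MIF_3 library. TPL had 214 and 199 CPM in MIF_3, 226 and 193 in MIF_1, and 189 and 206 in WT. Many stress genes cycle over the day, and the labels give no harvest time. In MIF_3 against MIF_1, edgeR and DESeq2 called 0 of 9 clock genes (1 at an unadjusted p below 0.05, and 1 by edgeR without MIF_3 replicate 1), where 1.76% of all genes were called. Against WT, 2 clock genes rose and 2 fell in MIF_3, and 2 in all were called without MIF_1 replicate 2, WT replicate 1 or WT replicate 2. PRR9 had 5.80 and 7.86 CPM in MIF_3, 6.97 and 4.28 in MIF_1, and 38.1 and 28.9 in WT, with log2 fold changes of -2.30 ± 0.24 in MIF_3 (adjusted p = 0.000358) and -2.58 ± 0.25 in MIF_1 (0.000212). CCA1 had 107 and 75.5 CPM in MIF_3, 104 and 84.8 in MIF_1, and 199.7 and 189.95 in WT, and fell by 1.1 ± 0.16 in MIF_3 (0.00227) and by 1.04 ± 0.16 in MIF_1 (0.00253). The part of clock phase in the differences between groups was not tested.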

How the data were processed

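The authors deposited read counts per locus for 6 poly(A) libraries. The submitters' processing notes name fastp, STAR, HTSeq and the TAIR10 build. Versions, strand setting and annotation release were not given in the sources used here. Counts were tested with edgeR 4.0.16 in R 4.3.3: filterByExpr (minimum count 10, total 15), TMM factors, and a quasi-likelihood fit with group as the only factor and all 6 libraries in it (3 residual degrees of freedom), adjusted over 20438 loci and called below 0.05. Every adjusted p in the text is from edgeR unless DESeq2 is named. SE is the log2 fold change over the root of the F statistic.

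The 10 genes and all lists were chosen with earlier results of these data known. Names come from TAIR10.1 (RefSeq); 24 of 140 list entries lack the name there. Outside the 10, named genes were up to 3 per list with the smallest p in MIF_3 against MIF_1, up to 2 in MIF_1 against WT, and the 5 nearest ZAT10, and some of these are given in counts only. ERF1A, ERF2, ERF7, AT5G61590, MPK6, CBF1, CBF3, RRTF1, ERF105, TPL, HDA19, NHL10, FRK1, WRKY11 and WRKY6 were added after values were seen. Upstream bases were read from TAIR10.1 by locus; proteins were not used here. Alternatives were DESeq2 1.42.0, other factors and filters, a replicate block, the libraries of a contrast alone, a threshold of 0.01 and leaving out each library; scaling by total counts was chosen after seeing the data. A library left alone in its group is assumed to vary like the others.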

Additional observations from a re-analysis of the deposited data

Results flagged for a closer look

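Results flagged are those in which MIF_3 and MIF_1, set against the same WT, differed by the edgeR test of MIF_3 against MIF_1 over all genes. For the 10 genes, which were chosen on this contrast, the log2 fold changes of MIF_3 against MIF_1 were -3.65 for ZAT10, -2.63 for ERF11, -2.15 for ERF104, -1.87 for ERF6, -1.47 for ERF5, -1.35 for AZF2, -1.27 for ZAT6 and -0.97 for ERF4. ZAT12 and ORA47 did not pass. Of the 28 other rapid stress genes, 16 were called lower, where 1.29% of all genes were. The values of those named by rule were -5.07 for CBF2, -3.05 for CAF1a and -1.63 for CYP81F2. Among the ERF relatives the value was -0.98 for ERF15. For upstream signalling the values were -1.14 for MKK9, -0.99 for MPK3 and -0.85 for RBOHD. CYP81F2, ERF15 and RBOHD were called higher in MIF_1 against WT and were not called in MIF_3 against WT. The genes picked as nearest to ZAT10 had -3.33 (AT1G35210), -3.17 (AT4G27657), -3.00 (AT5G17350) and -2.71 (DIC2). Over all genes 263 were called lower and 97 higher in this contrast, and without MIF_1 replicate 1 the calls numbered 20 in all.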

How the results depend on the processing

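With 2 libraries per group the calls depend on single libraries more than the directions do. Calls over all genes in MIF_1 against WT numbered 3612 (1332 to 3947 as single libraries were left out, 1575 at a threshold of 0.01), in MIF_3 against WT 2720 (1575 to 2435, and 1143), and in MIF_3 against MIF_1 360 (20 to 506, and 101), with 687 without a low-count filter and 775 by DESeq2. Of the 10 genes, 3 were called in MIF_1 against WT (0 to 4 without single libraries, 1 at 0.01), 10 in MIF_3 against WT (9 to 10) and 8 in MIF_3 against MIF_1 (2 to 10, and 3). Of the genes in the 9 lists of relatives and stress genes (without the shoot, root and reference lists), 20 were called in MIF_1 against WT (7 to 27, and 10), 33 in MIF_3 against WT (23 to 36, and 21) and 20 in MIF_3 against MIF_1 (2 to 23, and 9). Scaling by total counts put the median log2 fold change of all genes at 0.21 (MIF_1 against WT) and 0.17 (MIF_3 against WT), against 0.01 in each with TMM factors, and moved the share of calls that were higher to 77.6% and 71.2%, from 44.2% and 43.9%.

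Signs turned in MIF_1 against WT for ZAT10 (-0.17 to 0.31 as single libraries were left out), ZAT12 (-0.64 to 0.38), ERF6 (-0.91 to 0.20), ERF11 (-0.47 to 0.98, and 0.00 without MIF_1 replicate 1), CBF2 (-1.01 to 0.11), CAF1a (-0.22 to 0.53) and ERF104 (0.04 by total counts), and in MIF_3 against WT for ERF12 (-0.56 to 0.73, and 0.08 by total counts). The cause was not tested. No value of the 10 genes in MIF_3 against WT or MIF_1 turned.

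The labels do not say whether replicate numbers pair the libraries. Deviations of same-numbered libraries correlated at -0.042 (MIF_1 and WT), -0.036 (MIF_3 and WT) and 0.036 (MIF_3 and MIF_1). With 1 difference per group, these values do not settle whether same-numbered libraries were grown or handled together. With a replicate block, calls over all genes were 3127, 2363 and 295 in MIF_1 against WT, MIF_3 against WT and MIF_3 against MIF_1, and 3, 10 and 10 of the 10 genes were called. Counts of ORA47, ERF11 and CBF2 in MIF_3 limit how closely their fold changes are known.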
